A study of Mus musculus with 9 samples.

Results

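The genes described here are 6 mouse genes for epithelial and secreted proteins, Chil3, Chil4, Ltf, Odam, Dynap and Wfdc21, out of 18193 genes with a probe set on the array. They were picked by name because their signals spread widely between the 9 oral tumors, or between the genotypes, in these data. The signals that chose them are therefore given as a description, without a test of the genotypes, and support nothing by themselves. The tumors were oral tumors of mice aged 1 year, and per the series' title they arose with activated Ras and altered p53, which all groups share. The label K- stands before each genotype and is not spelled out. There were 3 tumors per group: p53-/- tumors, with loss of p53; p53R172H/- tumors, with the R172H missense allele over a null allele; and p53R172H/+ tumors, with that allele beside a wild-type one. The Ras allele, the promoter or recombinase that switched the alleles, and any pooling of animals were not given in the sources used here. Whether each tumor of a group is from another animal is likewise not labelled, and a p-value below speaks only of the spread among these tumors.

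Chil3 and Chil4 (also called Ym1 and Ym2) are chitinase-like proteins, which resemble enzymes that cut chitin but lack that activity. They are known from alternatively activated macrophages and from epithelium under type 2 immune signals. Ltf, lactoferrin, binds iron and is stored in the secondary granules of neutrophils and secreted by gland epithelium into saliva, milk and tears. Wfdc21 belongs to the whey acidic protein family, small secreted proteins that include protease inhibitors such as Slpi. Odam is a secreted protein of maturing tooth enamel and of the epithelium that seals gum to tooth, and Dynap is a transmembrane protein named for binding dynactin. In whole tumors, fewer cells of a type and less RNA per cell cannot be told apart.

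The sequence just before the transcription start is shown for the members with a promoter window at hand (GRCm38.p6), because Chil3 and Chil4 are neighbouring relatives. These windows lie before the transcript, so their likeness does not tell how the probe sets are read. A window of 250 bases was held for 4 of the 6 members, and Dynap and Wfdc21 are named only. Chil3 lies at chr3:106167565-106167814 and Chil4 at chr3:106219480-106219729, both on the minus strand, with 0 annotated genes between the gene bodies. Ltf lies at chr9:111019042-111019291 and Odam at chr5:87884760-87885009, both on the plus strand. Capitals mark the motifs that were found.

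Chil3: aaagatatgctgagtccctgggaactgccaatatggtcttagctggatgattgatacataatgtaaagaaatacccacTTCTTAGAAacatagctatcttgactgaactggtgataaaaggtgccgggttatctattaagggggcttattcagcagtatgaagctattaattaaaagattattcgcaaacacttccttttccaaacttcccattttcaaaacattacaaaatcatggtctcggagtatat
Chil4: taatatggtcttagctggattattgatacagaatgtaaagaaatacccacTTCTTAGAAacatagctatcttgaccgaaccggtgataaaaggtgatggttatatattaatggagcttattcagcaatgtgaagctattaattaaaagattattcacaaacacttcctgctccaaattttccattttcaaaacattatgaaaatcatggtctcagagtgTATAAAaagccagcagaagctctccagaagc
Ltf: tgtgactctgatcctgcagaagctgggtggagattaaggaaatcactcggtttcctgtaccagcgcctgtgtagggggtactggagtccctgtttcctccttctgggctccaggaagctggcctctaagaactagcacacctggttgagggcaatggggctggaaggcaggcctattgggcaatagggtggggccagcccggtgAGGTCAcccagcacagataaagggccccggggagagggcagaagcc
Odam: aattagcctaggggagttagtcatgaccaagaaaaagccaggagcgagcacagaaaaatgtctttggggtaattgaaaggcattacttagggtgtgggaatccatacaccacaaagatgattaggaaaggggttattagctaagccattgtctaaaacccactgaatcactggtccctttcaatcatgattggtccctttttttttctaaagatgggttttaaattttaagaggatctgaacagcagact

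The Chil3 and Chil4 windows had the same base at 201 of 221 aligned positions (91.0%). Both held TTCNNNGAA, a pattern known for STAT factors, spelled TTCTTAGAA, at bases -172 to -164 in Chil3 and -200 to -192 in Chil4, counted from the start. That pattern stood in 7.02% of 32851 windows of this length. The STAT pattern with a 4-base spacer was in 5.85% of windows and in 0 of these 4. Chil4 also held TATAAA, the TATA box, at -31 to -26 (12.4% of windows). The aligned place in Chil3 falls at the end of its window, so nothing is read from its lack there. Ltf held AGGTCA, the core of a nuclear receptor element, at -46 to -41 (14.0% of windows), and the Odam window held none of the motifs. Each motif was searched on both strands. The STAT patterns read the same on both strands, and no match overlapped another. A match describes the letters of a window, not a bound site.

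Chil4 had the widest spread of the 6 genes. In the p53-/- tumors 1, 2 and 3 its signal was 2972, 1310 and 1154 units, in the p53R172H/- tumors 99.2, 4693 and 4973, and in the p53R172H/+ tumors 101, 56.8 and 4083. A unit is the linear intensity of the deposited MAS5 table. Chil4 was therefore at or above 1154 in 6 tumors and at or below 101 in 3, and both mutant groups held tumors of both kinds while the p53-/- group held none of the low ones. The highest tumor was 87.6-fold above the lowest. On the log2 scale 3.51 separated the lowest of the 6 from the highest of the 3, and the next widest gap was 1.18.

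A further probe set on the array carries the symbols of Chil3 and Chil4 together, so it cannot assign its signal to either gene and was not tested. It read 4077, 1825 and 1720 units in the p53-/- tumors, 147, 6117 and 6786 in the p53R172H/- tumors, and 167, 105 and 5552 in the p53R172H/+ tumors. The same 3 tumors were low on it as on the Chil4 probe set, and its range was 64.8-fold. The probe set of Chil3 alone read 64.7, 30.3 and 78.6 units in the p53-/- tumors, 79.3, 369 and 204 in the p53R172H/- tumors, and 67.0, 94.6 and 171 in the p53R172H/+ tumors. Chil3 was the 1 member left out of testing, since the filter was set on the mean floored log2 signal, which was 6.73 for Chil3 and under log2 of 113 units. Its p53-/- tumor 2 lay under the floor of 52.6 units to which low signals were raised before log2 was taken. The 3 tumors low in Chil4 were not the lowest in Chil3. The transcripts of these 2 related genes were not compared, and how far each probe set also reads the other gene was not tested.

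**Figure D1:**
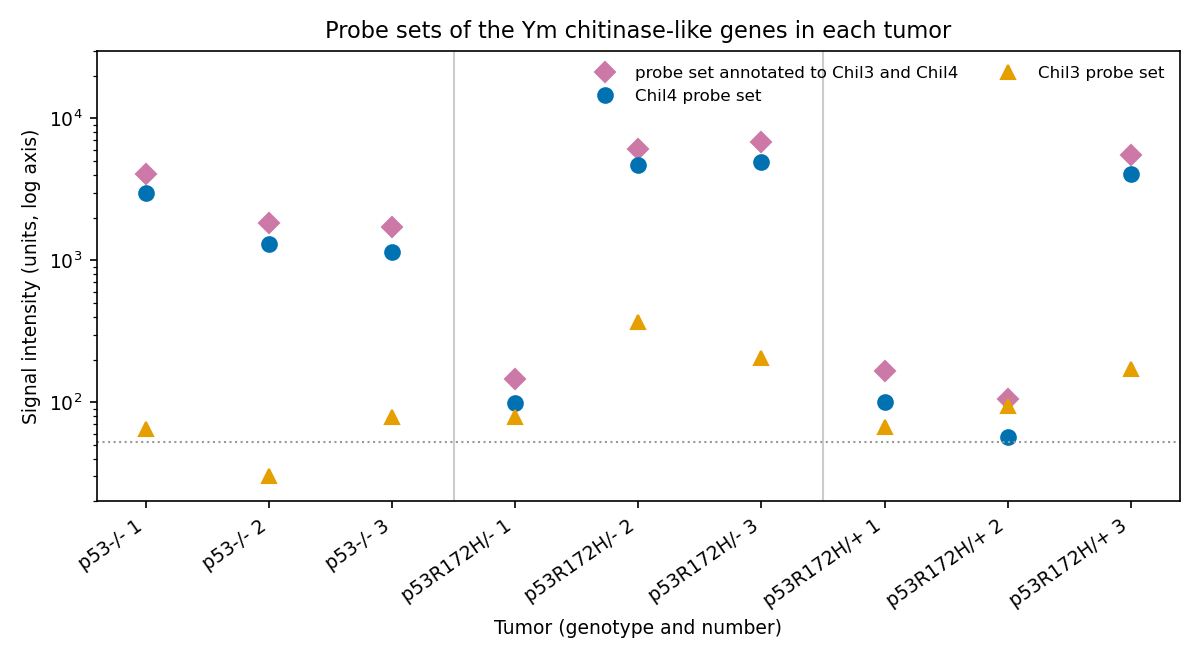
Signal (units, log axis) on the probe sets of Chil3, of Chil4 and of both genes together in the 9 tumors, by genotype, with 1 point per tumor and a dotted line at the floor of 52.6 units. The p53R172H/- tumor 1 and the p53R172H/+ tumors 1 and 2 sit at or below 101 on the Chil4 probe set and at or below 167 on the shared one.

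Ltf varied within every genotype, and its highest signals were in mutant tumors. It read 128, 393 and 47.4 units in the p53-/- tumors, 1251, 77.4 and 2353 in the p53R172H/- tumors, and 117, 2860 and 58.1 in the p53R172H/+ tumors. The 3 tumors at or above 1251 were the p53R172H/- tumors 1 and 3 and the p53R172H/+ tumor 2, and tumors of all 3 genotypes lay at or below 128. The range over tumors was 54.4-fold with the p53-/- tumor 3 raised to the floor.

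Wfdc21, the other secreted defence protein, read 774, 543 and 822 units in the p53-/- tumors, 104, 1157 and 778 in the p53R172H/- tumors, and 288, 181 and 413 in the p53R172H/+ tumors. Its lowest tumors were the p53R172H/- tumor 1 and the p53R172H/+ tumors 2 and 1, which are the 3 low in Chil4. The range was 11.1-fold, and the p53-/- tumors lay within 1.51-fold of each other.

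Odam, the enamel and gum protein, read 231, 846 and 91.8 units in the p53-/- tumors, 3645, 510 and 1763 in the p53R172H/- tumors, and 894, 3575 and 49.6 in the p53R172H/+ tumors. The p53R172H/+ group alone spanned 68.0-fold, since its tumor 3 lay under the floor while its tumor 2 was next to the highest of all 9. Dynap, the dynactin-binding protein, read 594, 1095 and 279 units in the p53-/- tumors, 8039, 2035 and 2778 in the p53R172H/- tumors, and 2521, 5762 and 820 in the p53R172H/+ tumors. The p53R172H/- tumor 1 was highest for both genes, and the p53R172H/+ tumor 2 came next for both. The p53-/- tumor 3 was the lowest of the 9 in Dynap and the next to lowest in Odam.

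**Figure D2:**
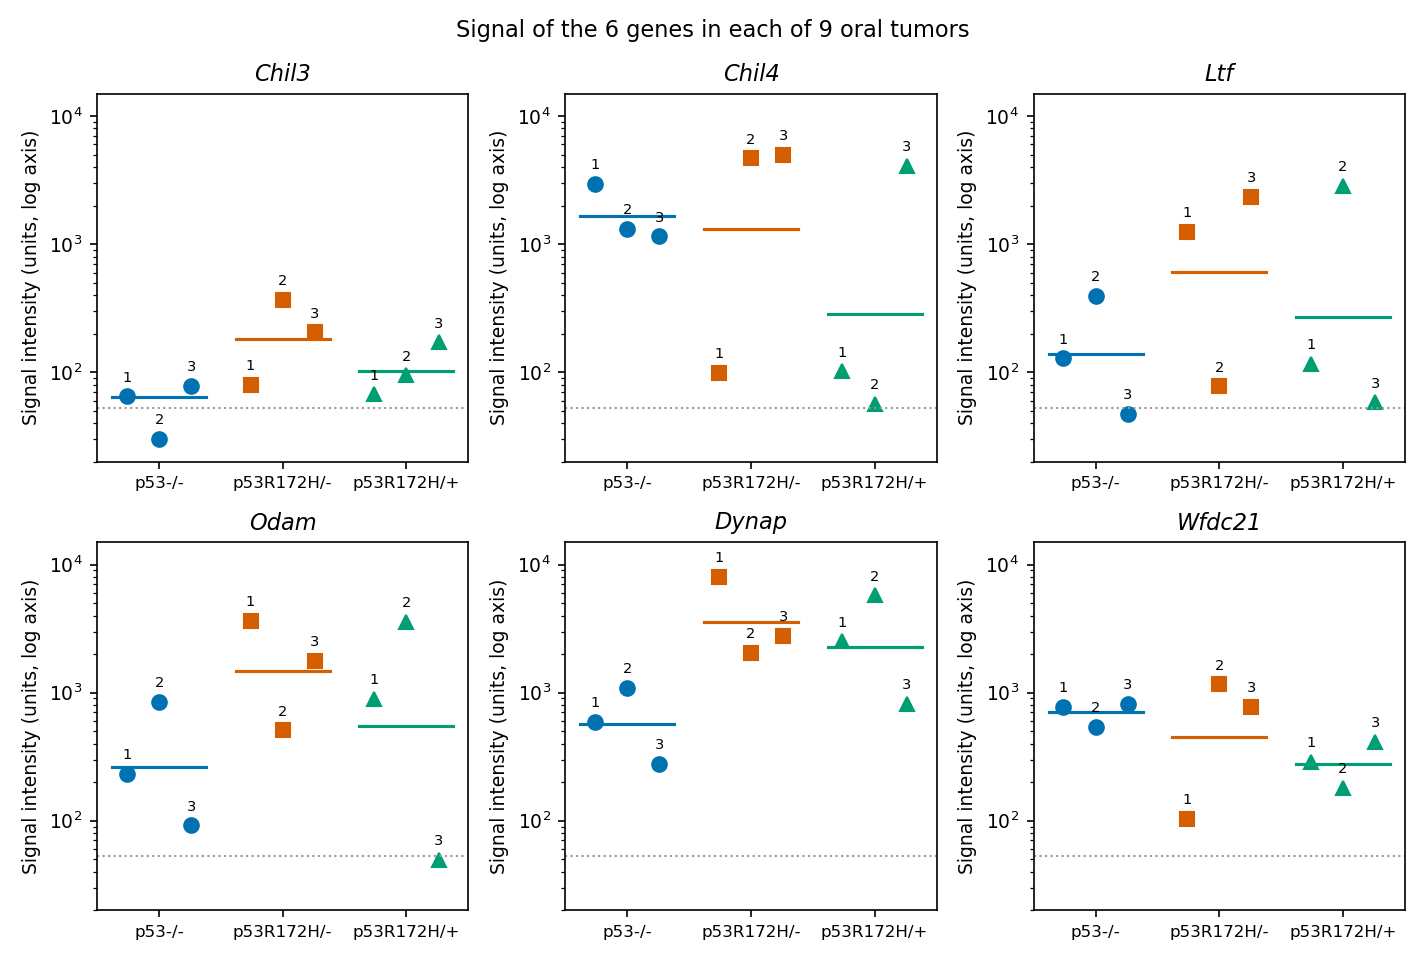
Signal (units, log axis) of the 6 genes in each of the 9 tumors, by genotype, with 1 point per tumor and its number, a bar at the group's mean log2 signal and a dotted line at the floor of 52.6 units. Chil4 separates into 3 tumors at or below 101 and 6 at or above 1154, and the p53-/- tumors of Dynap (279 to 1095) all lie below its p53R172H/- tumors (2035 to 8039).

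Ranked by the SD of log2 signal over the 9 tumors, Chil4 was 1 of 12167 tested genes at 2.64, Ltf 2 at 2.31 and Odam 5 at 2.18. Dynap ranked 36 at 1.57 and Wfdc21 102 at 1.15. The untested Chil3 had an SD of 0.93, and the median tested gene 0.18. The neighbours in this order included genes of muscle and hair. Myh4 (2.25) and Myh1 (2.23), both myosins of fast muscle, preceded Odam, and Tnnc2 (2.06), a muscle troponin, followed it. Krtap6-5, a hair protein, ranked 35, just before Dynap, and Bpifa5 37, just after it. Wfdc21 lay between Cd36, a fatty acid carrier, and Krt35, a hair keratin. Differences between genotypes made up 58.7% of the spread in Dynap and 48.2% in Chil3, but for 25.4% in Wfdc21, 24.9% in Odam, 20.4% in Chil4 and 16.1% in Ltf. The median gene had 30.0%, so that for 4 of the 6 the share between genotypes was below that of the median gene.

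The comparison of p53R172H/- with p53-/- tumors sets mutant p53 without a wild-type allele against loss of p53. Dynap averaged 4284 ± 3273 units against 656 ± 412 (SD, n = 3 each), a log2 difference of 2.66, and the groups did not overlap. Chil3 averaged 217 ± 145 against 57.9 ± 24.9, a log2 difference of 1.49, also without overlap, though the nearest tumors of the groups read 78.6 and 79.3 units. Of the 6 members these 2, of which Chil3 was not among the tested genes, did not overlap. Of all tested genes 9.11% were likewise higher without overlap and 13.8% lower, and nothing is read from this, because the members were chosen on these values. Odam averaged 1972 ± 1578 against 390 ± 401, 5.67-fold on the floored log2 scale, and Ltf averaged 1227 ± 1138 against 190 ± 181, with a log2 difference of 2.14. Both groups overlapped for each, as they did for Chil4 (log2 difference -0.32) and Wfdc21 (-0.63). The sign for Chil4 rested on single tumors, since the difference was 1.55 without the p53R172H/- tumor 1 and 0.11 without the p53-/- tumor 1. For Wfdc21 it was 0.44 without the p53R172H/- tumor 1.

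The comparison of p53R172H/+ with p53-/- tumors uses the same p53-/- tumors, so its values are not independent of those above. Wfdc21 averaged 294 ± 116 units against 713 ± 149 (SD, n = 3 each), a log2 difference of -1.34, and was the 1 member whose groups did not overlap. Of all tested genes 8.86% were lower and 7.08% higher without overlap. Chil4 averaged 1414 ± 2312 against 1812 ± 1007, with a log2 difference of -2.53, because 2 of its 3 p53R172H/+ tumors were low. Dynap averaged 3035 ± 2511, a log2 difference of 2.01, with the p53R172H/+ tumor 3 inside the p53-/- range. For Ltf (0.96), Odam (1.08) and Chil3 (0.67) the groups overlapped too. Without the p53R172H/+ tumor 2 the difference became -0.27 for Odam and -0.75 for Ltf.

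Between the mutant genotypes, p53R172H/- against p53R172H/+, all 6 members overlapped, where 5.27% of tested genes were higher and 6.62% lower without overlap. The log2 differences were 2.21 for Chil4, 1.43 for Odam, 1.18 for Ltf, 0.82 for Chil3, 0.71 for Wfdc21 and 0.64 for Dynap. Without the p53R172H/+ tumor 3 the value became -0.27 for Odam and -0.10 for Dynap. With both mutant groups averaged against p53-/-, the differences were 2.33 for Dynap, 1.79 for Odam, 1.55 for Ltf, 1.08 for Chil3, -0.98 for Wfdc21 and -1.42 for Chil4. No member was free of overlap there, beside 3.34% of tested genes higher and 3.94% lower. In none of the 4 comparisons did limma call a gene at an adjusted p of 0.05, so the background is 0% in each. Unadjusted p-values under 0.05 came to 1897, 1259, 603 and 1938 of the 12167 genes in the order given.

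The members were chosen on these same signals, so the correlations among them over the 9 tumors are given here as a description and not as evidence, without p-values. The count of pairs under a permutation threshold in the closing section is no evidence either. Odam and Dynap had Pearson's r of 0.89 and Spearman's rho of 0.93, and r was 0.92 without the 2 tumors farthest from the median of Odam. With any 1 tumor left out r was 0.86 to 0.96, and after each group's mean was taken off it was 0.96. Ltf and Odam had r of 0.87 and rho of 0.85, and r of 0.85 without the 2 tumors farthest from the median of Ltf. With any 1 tumor left out r was 0.83 to 0.91, and after each group's mean was taken off it was 0.84. Ltf and Dynap had r of 0.75 and rho of 0.77, with 0.79 after the group means were taken off. Each of these 3 genes had its 3 highest signals in the p53R172H/- tumors 1 and 3 and the p53R172H/+ tumor 2.

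Dynap and Wfdc21 had r of -0.70 and rho of -0.60. Over the 9 tumors Chil3 was near 0 with Ltf (r of -0.07), Odam (-0.10) and Dynap (0.14). After each group's mean was taken off, these r were -0.53, -0.72 and -0.78. With Wfdc21 Chil3 had r of 0.40, and 0.88 after the group means were taken off. Chil4 falls into 2 clusters of tumors, so a pooled r would measure the gap between them and is not given. In the 6 tumors with high Chil4, its r was 0.80 with Chil3, 0.70 with Dynap, 0.23 with Ltf, 0.20 with Odam and 0.15 with Wfdc21. The log2 signal of Wfdc21 was 6.70 to 8.17 in the 3 tumors low in Chil4 and 8.69 to 10.18 in the other 6.

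**Figure D3:**
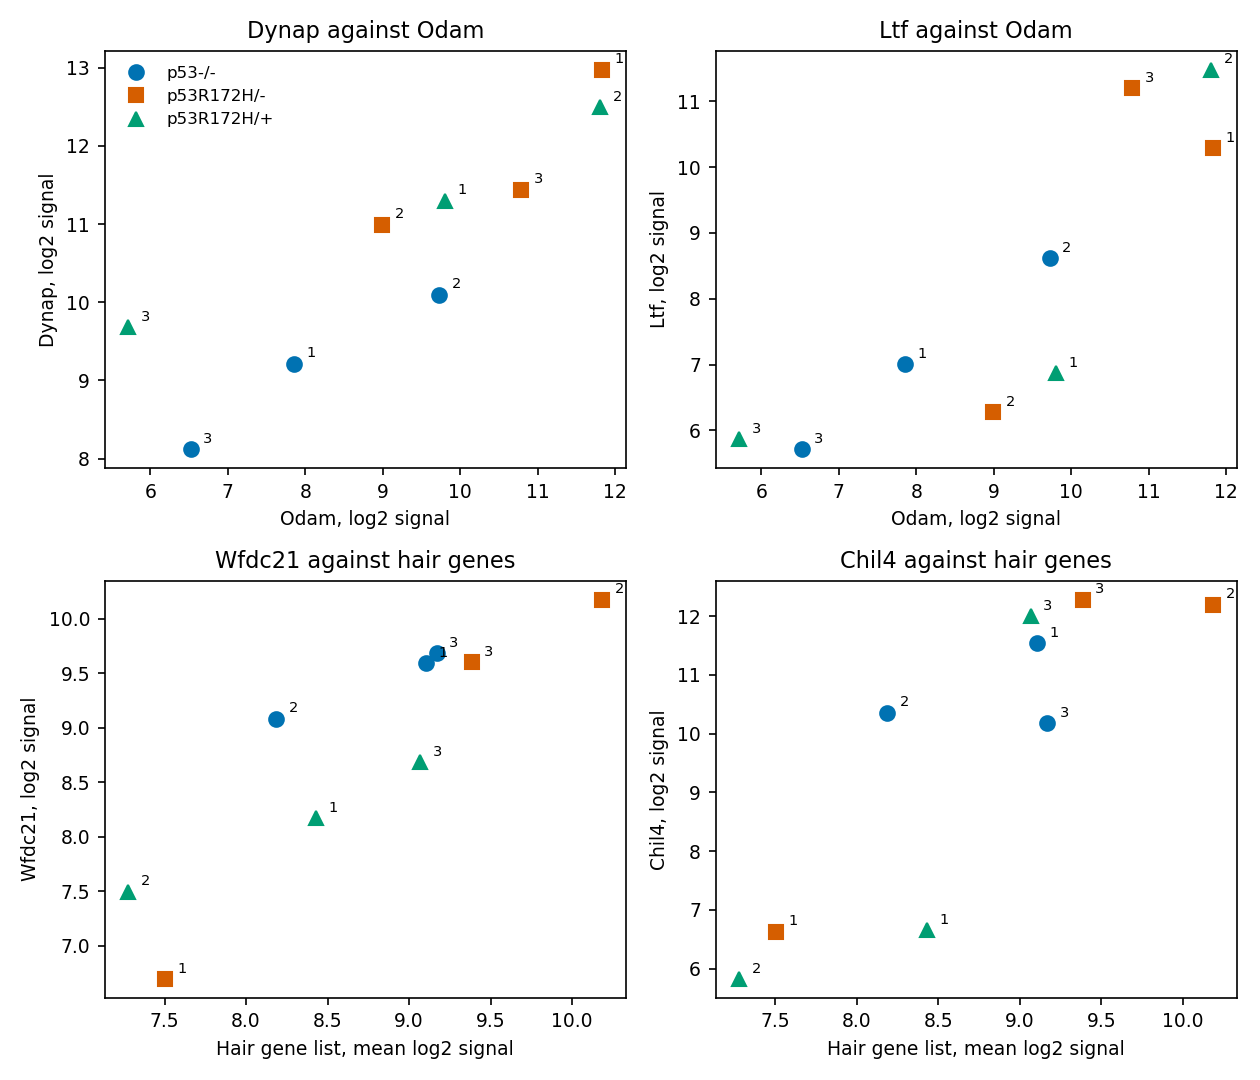
Log2 signal (log2 of units) of member against member, or of member against the mean of a tissue list, with 1 point per tumor, coloured by genotype. Odam rises with Dynap (r 0.89) and with Ltf (0.87), Wfdc21 rises with the hair list (0.89), and in the panel of Chil4 against the hair list the 3 tumors low in Chil4 stand apart from the 6 others.

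Over 14 keratins and related genes of stratified epithelium the mean log2 signal was 12.31 to 12.67 in every tumor, although single genes of the list varied, with Krt4, a keratin of mucosal epithelium, at 472 to 13502 units. A hair list averaged 7.28 to 8.43 in the 3 tumors low in Chil4 and 8.19 to 10.18 in the other 6, and a skeletal muscle list 6.48 to 7.51 against 7.81 to 10.78. Krtap8-1, a hair protein, was at 223, 928 and 159 units in those 3 tumors and at 1240 to 5739 in the 6. Acta1, skeletal muscle actin, was at 273, 536 and 149 in the 3 and 536 to 7605 in the 6. The part of hair and muscle in the Chil4 values was not tested.

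Of 48 relations of log2 signal between a member and one of 8 tissue lists, 6 passed an adjusted p of 0.05 over the 48. The members and the lists were chosen with earlier results of these data known. The p-values here are therefore a description and no independent evidence. Wfdc21 followed the hair list with r of 0.89 and rho of 0.92 (exact permutation p = 0.000931, adjusted 0.0387), and r was 0.76 without the 2 farthest tumors. It followed the list of the cornified layer with r of 0.87 and rho of 0.97 (exact permutation p = 0.00244, adjusted 0.0387). The mean of the cornified list moved only from 12.06 to 12.56, and its genes did not all run one way. In the p53R172H/- tumor 1, where Wfdc21 was lowest, Ivl was also lowest, at 144 units. Sprr1a and Sprr3 were highest in that tumor, at 19339 and 13656. With the muscle list Wfdc21 had r of 0.83 and rho of 0.85 (exact permutation p = 0.00621, adjusted 0.0497). Dynap ran against the salivary gland list with r of -0.86 and rho of -0.83 (exact permutation p = 0.00318, adjusted 0.0387), but that list's mean moved only from 8.43 to 8.78. The remaining pair of calls, Chil4 with hair and with muscle, rests on its 2 clusters: in the 6 high tumors both r were 0.65. Of all lists set against Chil4 in those 6 tumors, the macrophage list had the highest r, 0.87, with rho of 0.94 (exact permutation p = 0.0167, adjusted 0.217 over 13 relations), followed by the neutrophil list with r of 0.77 (exact permutation p = 0.0806, adjusted 0.245), and the salivary gland list had r of -0.78 (exact permutation p = 0.0792, adjusted 0.245). None of the 13, which took in the other members beside the lists, passed after adjustment. The 6 tumors were picked on Chil4 itself, so these values describe them and are no evidence of a relation. The part of macrophages in the Chil4 values was not tested. None of the 6 calls held with every tumor left out in turn: without the p53R172H/- tumor 1, for example, the relation of Wfdc21 to hair had an adjusted p of 0.113 by exact permutation. With quantile normalization, and after each group's mean was taken off, 0 of the 48 passed. Exact permutation within groups of 3 can give no p under 0.00463, so the lack of calls there decides nothing about relations within genotypes. After the means were taken off, Wfdc21 had r of 0.94 with hair, 0.97 with the cornified layer and 0.98 with muscle. Dynap had r of -0.75 with the salivary gland list. The part of these tissues in the Wfdc21 and Dynap values was not tested.

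Some genes of the salivary gland list were under the floor and others well above it. Amy1, amylase, lay under the floor in all 9 tumors and Bpifa2 in 8. Of the list's 16 genes on the array 7 passed the filter, among them Slc12a2 at 964 to 1544 units and Klk1 at 438 to 676. Aqp5, a water channel of gland cells and the list's brightest gene, ranged from 739 to 2555 units. Of the 6 eosinophil markers on the array 1 was tested, Prg3, at 105 to 134 units. Prg3 was lower without overlap in the p53R172H/- than the p53-/- tumors, as were 13.8% of all tested genes. Among the untested ones Epx was 47.7 to 106 units, Prg2 44.5 to 57.1, Siglecf 21.4 to 79.2, Il5ra 53.3 to 96.4 and Ccr3 51.9 to 109. For Ltf, the neutrophil granule list had 6 of 12 genes tested. Its brightest were Anxa1 at 11254 to 17889 units, Lyz2, a lysozyme that macrophages also make, at 543 to 3523, and Elane, neutrophil elastase, at 184 to 327. Lyz2 was highest in the p53R172H/+ tumor 1, where Ltf was 117. Camp, stored in the same granules as Ltf, was at 48.9 to 65.4 units, and Ngp, another granule protein, at 125 to 169. A separate neutrophil list averaged 8.60 to 9.53 over the tumors. It was 9.53 in the p53R172H/+ tumor 2 and 9.29 in the p53R172H/- tumor 3, where Ltf was highest, and 8.78 in the p53R172H/- tumor 1, with Ltf at 1251. In the p53R172H/+ tumors 1 and 3, with Ltf at 117 and 58.1, it was 9.28 and 9.19. Over the 9 tumors Ltf and that list had r of 0.35 and rho of 0.30 (exact permutation p = 0.348, adjusted 0.562), and the part of neutrophils in the Ltf values was not tested.

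Of tooth genes, Ambn, the enamel matrix protein ameloblastin, was under the floor in all 9 tumors, and Amtn, which shares the maturing enamel with Odam, in 5, at 44.4 to 90.0 units. Of 17 genes of tooth and related secreted phosphoproteins 14 were on the array and 4 passed the filter. Csn1s1, a milk casein, was at 54.8 to 547 units, highest in the p53R172H/+ tumor 2. Sparcl1, a matrix protein, was the brightest, with 457 to 1956 units. Amelx, amelogenin, was at 136 to 187.

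The genes whose log2 signal was most like each member's were found over the 9 tumors among all tested genes, as a description with no test. For Odam they were Eya2 (r 0.98), Usp32 (0.97), Cxcl5 (0.97), Cxcl3 (0.96) and Ppbp (0.95), of which the last 3 are chemokines that draw neutrophils. Cxcl5 read 494, 1431 and 143 units in the p53-/- tumors, 3742, 834 and 2420 in the p53R172H/- tumors, and 890, 3696 and 231 in the p53R172H/+ tumors. It was high where Odam was high, with the p53R172H/- tumor 1 and the p53R172H/+ tumor 2 at the top and the p53-/- tumor 3 at the bottom. For Dynap the 5 were Tbc1d2 (0.99), Gin1 (0.99), Lpar6 (0.98), Cxcl1 (0.98) and Qtrt1 (0.96). Cxcl1, another chemokine for neutrophils, was at 218 to 537 units in the p53-/- tumors, 584 to 1485 in the p53R172H/- tumors and 444 to 1300 in the p53R172H/+ tumors. Ltf was most like Mfsd4a (0.95), Psca (0.93), Tmem176a (0.92), Cited2 (0.90) and Cxcl5 (0.90).

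For Wfdc21 the 5 were Map1lc3a (0.98), Gas6 (0.98), Sbk1 (0.97), Lifr (0.97) and Esyt1 (0.97). For Chil4, with its 2 clusters, the leading genes were Pmel, Paqr3, Igtp, 2610528A11Rik and Sfrp4, and their r is not given. Pmel, a pigment cell protein, was at 159 to 160 units in the 3 tumors low in Chil4 and at 193 to 221 in the other 6. Chil3 was most like Mif4gd, Oat, Fads1 and Stat3 (0.94 each) and Fkbp5 (0.93). The number of genes with r above 0.9 over these 9 tumors ran from 6 for Ltf to 66 for Wfdc21.

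**Figure D4:**
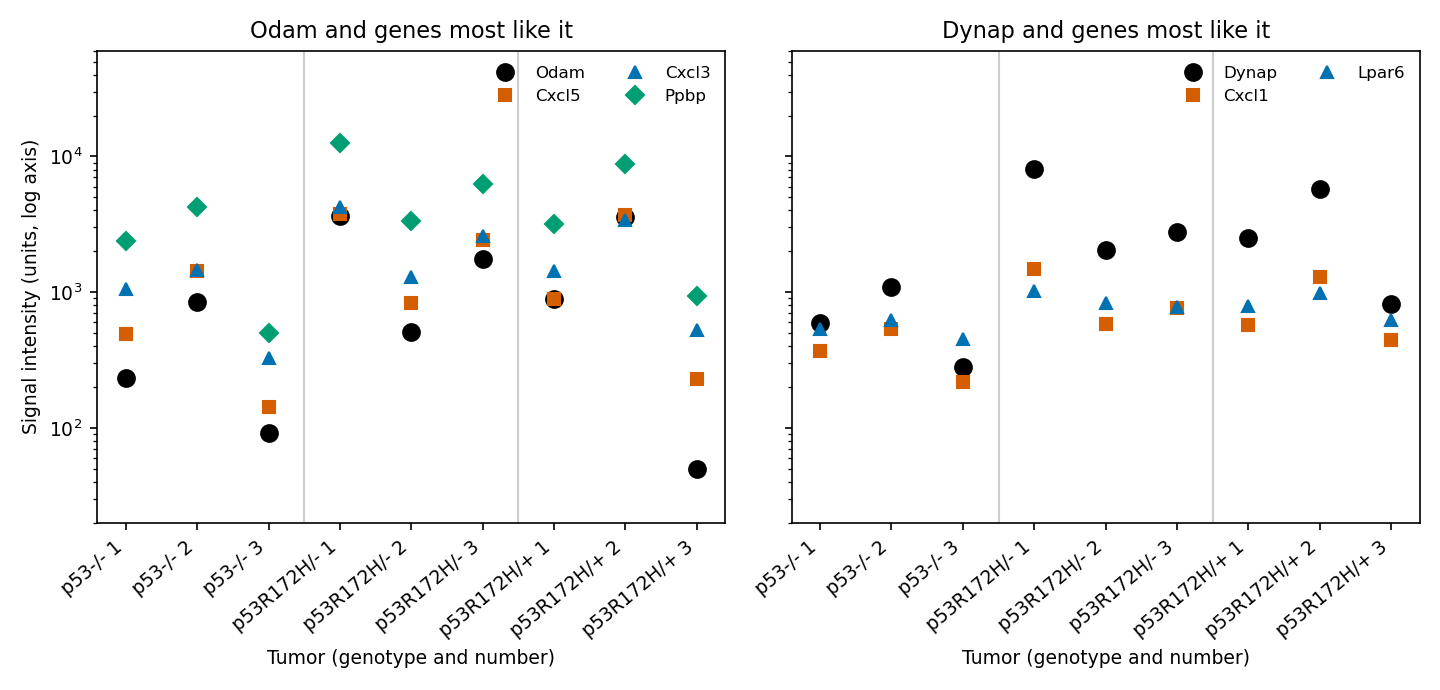
Signal (units, log axis) in each of the 9 tumors of Odam with Cxcl5, Cxcl3 and Ppbp, and of Dynap with Cxcl1 and Lpar6, with genotype and tumor number along the x axis. Every gene shown is highest in the p53R172H/- tumor 1 and the p53R172H/+ tumor 2, and heights of different genes cannot be compared.

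Related genes of each pathway were described from lists, with no gene of any list passing limma's adjusted p in any comparison. Of 4 tested chitinase-family genes, Chit1, an active chitinase, was lower without overlap in the p53R172H/+ than the p53-/- tumors, at 4531 to 4947 against 5023 to 5207 units. Chil1, another chitinase-like protein, was at 560 and 601 in the p53R172H/+ tumors 1 and 2 and at 1633 to 3853 in the others. Both of these tumors were low in Chil4, but the p53R172H/- tumor 1, also low in Chil4, had 2047. Of 10 tested type 2 genes, 9 averaged higher in the p53R172H/- than the p53-/- tumors, with a median log2 difference of 0.14 beside -0.03 for all genes. Retnla, Il4ra and Il13ra1 did so without overlap, 3 of 10, beside 9.11% of all tested genes. Of the list's 17 genes on the array only these 10 passed the filter. The list was also chosen with earlier results of these data known. Its counts, here and below, are therefore a description and no evidence of a type 2 response. In the p53R172H/+ tumors 3 of the 10, Arg1, Retnla and Il13ra1, were higher without overlap (7.08% of all tested genes), with a median of 0.10. Retnla, a marker of alternatively activated macrophages, was at 80.3 to 91.3 units in the p53-/- tumors and 111 to 311 in the p53R172H/- tumors. Its p53-/- signals all lay under the level set for the mean in the filter, so Retnla was tested only through its higher signals in mutant tumors.

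The shares of all tested genes without overlap are given beside the next counts. They were 9.11% higher and 13.8% lower in the p53R172H/- tumors and 7.08% higher and 8.86% lower in the p53R172H/+ tumors. The lists below were likewise chosen with earlier results of these data known, so their counts are a description and no evidence of a response. Of 10 tested whey acidic protein genes, 0 separated the p53R172H/- from the p53-/- tumors and 1, Wfdc17, was higher without overlap in the p53R172H/+ tumors. Slpi, the protease inhibitor of secretions, was at 12898 to 16997 units in every tumor. Of 14 tested mucosal defence genes, Pigr and Muc5ac were lower without overlap in the p53R172H/- tumors, and the list's median log2 difference was 0.04. Of 8 tested iron genes, Fth1, a ferritin subunit, was higher and Tfr2, a transferrin receptor, lower without overlap in the p53R172H/- tumors. Lcn2, a siderophore-binding protein of neutrophils and epithelium, was at 401 to 1047 units in the p53-/- tumors, 538 to 2596 in the p53R172H/- tumors and 458 to 1322 in the p53R172H/+ tumors. Of 12 tested genes of the epithelial IL-17 response, 10 averaged higher in the p53R172H/- tumors, with a median of 0.24 beside -0.03 for all genes. Cxcl1 and Cxcl2 did so without overlap, and 2 averaged lower, among them Defb4 (log2 difference -0.44). In the p53R172H/+ tumors 8 of the 12 averaged higher, and 1, Cxcl2, did so without overlap. Il17a itself was not tested, at 37.6 to 94.3 units. Cxcl2 was at 176 to 301 units in the p53-/- tumors, 449 to 1102 in the p53R172H/- tumors and 471 to 1458 in the p53R172H/+ tumors. Of 9 tested dynactin and AKT genes, for Dynap, 2 were higher and 3 lower without overlap in the p53R172H/- tumors, with a median of -0.06. In the p53R172H/+ tumors 0 were higher and 3 lower without overlap, with a median of 0.01.

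The array holds 45101 probe sets, of which 64 are controls, and array medians were 109 to 123 units. The number of arrays limits the precision of every value above.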

How the data were processed

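Total RNA of 9 tumors was hybridised to 1 Affymetrix array each. The deposited table holds a linear signal intensity per probe set, made by the authors with MAS5 per the submitters' processing notes. The version, the scaling and the genome build were not given in the sources used here. Symbols are those of the platform annotation, and all 6 members matched the GRCm38.p6 gene table.

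A floor was set at the 20th percentile of all intensities (52.6 units) before taking log2. The brightest probe set on average stood for its gene, and a filter on the mean floored log2 signal (log2 of 113 units) kept 12167 of 18193 genes, among them 5 of the 6 members. All 9 arrays entered one limma 3.58.1 fit (R 4.3.3) with group means and a variance trend, and p-values were adjusted by Benjamini-Hochberg over all genes tested. Log2 differences are on this floored scale. A group pair was without overlap when every tumor of one lay above every tumor of the other. Correlations used log2 signal and two-sided exact permutation of all pairings, adjusted within the 15 pairs of members and within the 48 relations of a member to a tissue list. A list's level is the mean log2 signal of its tested genes. Promoter windows came from a table of GRCm38.p6 windows apart from the gene table, and it held 4 of the 6 members. The scripts were tested on simulated data.

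The members and the gene lists were chosen with earlier results of these data known. Named were the 6 members, up to 3 genes of highest mean signal from each list and any past the threshold, the 5 genes of highest r per member, and the genes next to a member by SD. Genes named beside these, such as Retnla, Il4ra, Il13ra1, Wfdc17, Tfr2, Krt4, Csn1s1, Pigr, Muc5ac, Cxcl1, Cxcl2 and the cell type markers near the floor, were chosen after their values were seen. Alternatives were no floor, a floor at the 40th percentile, quantile normalization, no filter, the mean over probe sets, no variance trend, the tumor number as a block, linear signal, deviations from the group mean, and each tumor left out in turn. Probe sets with several symbols or none were not tested.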

Additional observations from a re-analysis of the deposited data

How the results depend on the processing

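Among the 4 genotype comparisons limma called 0 genes under every alternative run but 1: with both mutant groups averaged against p53-/-, leaving out each tumor in turn gave 0 to 1 genes. The 1 gene, Dusp6 (log2 difference 1.94, limma adjusted p = 0.0375), was called without the p53R172H/+ tumor 3. With the tumor number as a replicate block the count was 0 in all 4, with smallest adjusted p-values of 0.127, 0.284, 0.663 and 0.151 in limma. No pairing of the samples by tumor number was seen, though the labels do not settle it. Deviations from the group means correlated at -0.50 to 0.24 across genes between tumors of the same number and at -0.47 to 0.52 between others. Of the 15 pairs of members 3 had an adjusted permutation p under 0.05, which is no independent evidence for genes chosen on these signals. They were Odam with Dynap, Ltf with Odam, and Chil4 with Wfdc21, of which the last rests on the 2 clusters of Chil4. The count became 1 with linear signal and 0 with deviations from the group mean, and 0 to 3 with each tumor left out. With deviations, permutation within groups of 3 can give no p under 0.00463, which limits that count here and for the lists. The 6 relations with tissue lists became 1 with the floor at the 40th percentile, 0 with quantile normalization, 1 with the mean over probe sets and 0 with deviations from the group mean, and 0 to 5 with each tumor left out. The near-zero r of Chil3 changed sign with Ltf (-0.32 to 0.22 with each tumor left out) and with Odam (-0.23 to 0.0869). With deviations it was -0.53 for Ltf and -0.72 for Odam. With Dynap it was -0.10 with linear signal and -0.78 with deviations. The Odam log2 difference ranged from -0.27 to 2.77 for p53R172H/+ against p53-/- and from -0.27 to 2.78 for p53R172H/- against p53R172H/+ with each tumor left out. Signs also turned for Chil4 (-1.27 to 1.55) and Wfdc21 (-1.30 to 0.44) in p53R172H/- against p53-/-, Ltf (-0.75 to 2.06) in p53R172H/+ against p53-/-, and Dynap (-0.10 to 1.31) in p53R172H/- against p53R172H/+. The cause of these changes was not tested. Signals under the floor, 1 tumor each for Chil3, Ltf and Odam, have no order.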
